A study of Mus musculus with 8 samples.

Results

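Complement is a cascade of plasma and tissue proteins that tags targets for uptake by phagocytes and calls in leukocytes. The 7 genes described here are the parts of that cascade beyond its recognition molecule C1q: the central component C3, the components C4b and C2 of the classical and lectin pathways, factor B of the alternative pathway (Cfb), the inhibitor of the first proteases (Serping1), and the receptors for the small fragments released from C3 and from complement component 5 (C3ar1 and C5ar1). They were taken by gene symbol from a table of 54854 genes, and all 7 were found. Splitting of C3 is the step on which the 3 activation routes converge, and the released fragments act on G protein-coupled receptors that are best known from macrophages, neutrophils and mast cells. The liver makes most of the circulating components, while fibroblasts, astrocytes and macrophages are known to make some of them within tissues.

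Each of the 8 libraries came from a whole pituitary of C57BL/6N mice at the age of 5 weeks. A group of 4 had received the function-blocking antibody AFS98 against CD115, the receptor for colony stimulating factor 1 (gene Csf1r), which many tissue macrophages need to survive; the other 4 had received the rat IgG2a isotype control 2A3. In both groups replicate 1 was a female and replicates 2 to 4 were males. Antibody was given first to the mother (3 mg on gestation day 6.5) and then to the young, in doses of 100 µg on day 2 after birth, 150 µg on day 14 and 200 µg at the age of 4 weeks. How many mothers were used is not stated, so effects of litter and of antibody cannot be told apart.

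Libraries held 23289819 to 36218096 counts. Csf1r itself fell 8.04-fold, and 13 of 14 macrophage markers fell (edgeR quasi-likelihood test, Benjamini-Hochberg adjusted p below 0.05), their summed level going from 188 to 246 CPM in the controls to 17.0 to 47.5 CPM with anti-CD115. CPM are counts per 1000000 after scaling of library size with TMM factors. Over all 17723 genes tested, 147 fell and 7 rose, a share called of 0.869%, or 0.829% for falls and 0.0395% for rises.

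The promoters of both receptor genes and of C3 are shown because the receptors fell together and C3 did not pass. They are the 250 bases before the start site in RefSeq (build GRCm38.p6), 5′ to 3′ on the gene's own strand; 3 of the 7 genes had an entry in the table used.
C3ar1 (chr6:122856158-122856407, minus strand): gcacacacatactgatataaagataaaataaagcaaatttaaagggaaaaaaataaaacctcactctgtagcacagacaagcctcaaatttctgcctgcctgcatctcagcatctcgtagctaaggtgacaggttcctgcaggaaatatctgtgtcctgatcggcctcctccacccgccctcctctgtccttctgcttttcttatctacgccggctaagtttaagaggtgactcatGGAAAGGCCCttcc
C5ar1 (chr7:16259339-16259588, minus strand): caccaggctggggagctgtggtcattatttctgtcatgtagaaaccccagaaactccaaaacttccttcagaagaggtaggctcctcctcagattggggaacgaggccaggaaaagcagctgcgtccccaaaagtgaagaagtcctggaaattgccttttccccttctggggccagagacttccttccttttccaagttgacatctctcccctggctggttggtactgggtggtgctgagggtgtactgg
C3 (chr17:57228137-57228386, minus strand): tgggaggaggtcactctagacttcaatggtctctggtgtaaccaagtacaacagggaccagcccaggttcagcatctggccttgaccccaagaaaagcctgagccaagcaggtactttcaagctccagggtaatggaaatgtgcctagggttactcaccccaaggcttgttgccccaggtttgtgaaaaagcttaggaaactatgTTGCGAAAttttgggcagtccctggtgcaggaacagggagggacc
Capitals mark matches to 4 motifs searched on both strands: GAGGAA, the core bound by the myeloid factor PU.1; TTGCNNAA, bound by C/EBP factors; GGG, any 2 bases and TTTCC, bound by NF-kB; and GAAA, any 2 bases and GAAA, the interferon-stimulated response element. No match overlapped another. The C3 window held 1 C/EBP match, which starts 45 bases before the start site, and such a match was present in 9.56% of 32851 promoter windows. The C3ar1 window held 1 NF-kB match on the opposite strand, starting 14 bases before the start site, against 1.41% of windows. The PU.1 core was in none of the 3 windows and in 23.3% of all, the interferon element was in none of the 3 and in 2.98% of all, and the C5ar1 window held none of the 4 motifs. The C5ar1 gene as counted runs to 16259540 on chromosome 7, beyond the RefSeq start used here. Most of its window therefore lies inside the gene as counted, and the bases before that other start were not searched in full. These are matches of letters, with no measurement of binding.

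Of the 7 genes, 2 fell with anti-CD115, both of them receptors, 0 rose and 4 passed in neither direction. Cfb had too few counts to be tested. Over all genes tested, 0.829% fell and 0.0395% rose. The median log2 change of the 6 tested was -0.68, against 0.00 over all genes tested. It lies between the changes of C4b (-0.94) and C2 (-0.43), neither of which passed. Without control replicate 3 these were -0.13 and -0.06. The median of the 6 then lay between C3 (-0.48) and C4b, so it depends on that library. Both receptors had every treated library below every control, as had 3.31% of all genes, while 0 of the 7 had every treated library above every control, as had 2.47% of all genes. The plot of levels by library shows this split between receptors and components.

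**Figure D1:**
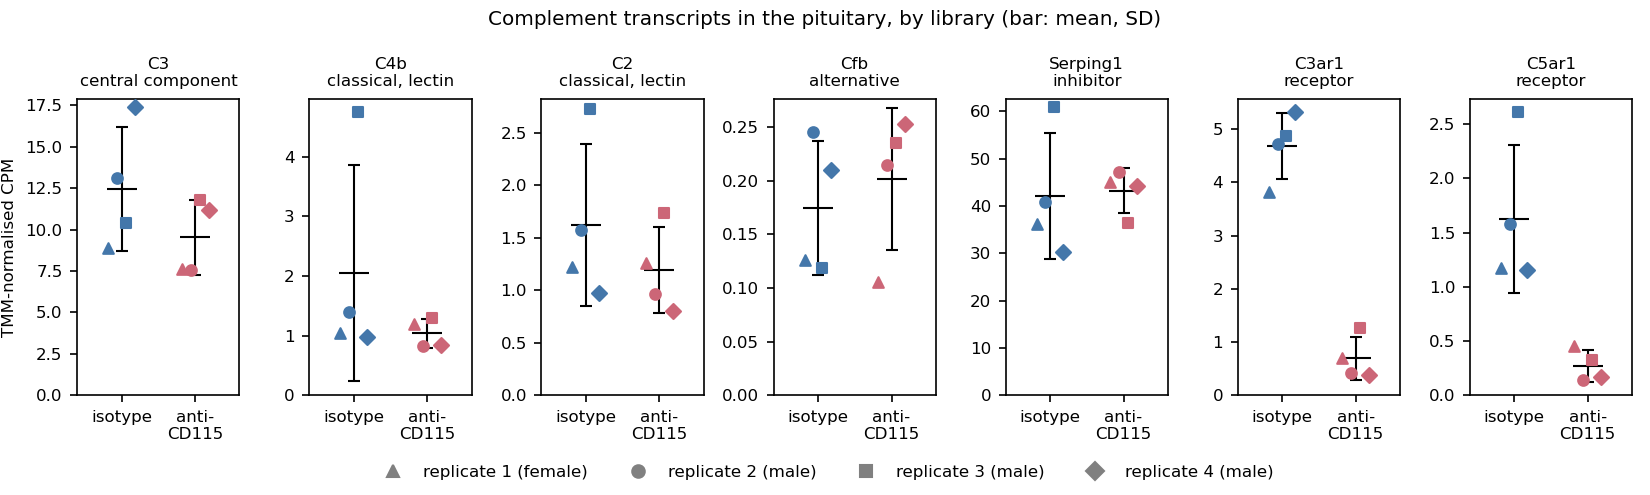
TMM-normalised CPM (vertical axes, linear, from 0) of the 7 complement genes in each of 4 isotype control (blue) and 4 anti-CD115 (red) libraries, with the mean and SD as black bars. C3ar1 and C5ar1 are lower in all 4 treated libraries, and isotype control replicate 3 (square) is the highest control for C4b, C2, Serping1 and C5ar1.

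C3ar1 encodes the receptor for the fragment released from C3 (ENSMUSG00000040552, chromosome 6, 122847138 to 122856161, minus strand, GRCm38). Its level was 3.82, 4.72, 4.86 and 5.31 CPM in control replicates 1 to 4 and 0.701, 0.429, 1.26 and 0.379 CPM in anti-CD115 replicates 1 to 4. The groups did not overlap, and anti-CD115 replicate 3 was the highest treated library. C3ar1 fell 6.51-fold, with a 95% interval of 3.96 to 10.7, its mean going from 4.68 ± 0.624 CPM to 0.693 ± 0.405 CPM (SD, n = 4 in both groups; log2 change -2.70, SE 0.32, edgeR adjusted p = 0.00268). In bulk tissue, fewer cells of a type and less RNA per cell cannot be told apart.

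C5ar1 encodes the receptor for the fragment released from complement component 5 (ENSMUSG00000049130, chromosome 7, 16246743 to 16259540, minus strand). It was measured from few reads, 28, 45, 88 and 33 counts in the controls and 13, 4, 11 and 4 with anti-CD115. These correspond to 1.18, 1.57, 2.61 and 1.15 CPM against 0.456, 0.143, 0.323 and 0.168 CPM, so the groups did not overlap; control replicate 3 was the highest control and the anti-CD115 female the highest treated library. Its control libraries gave C5ar1 enough counts to be tested, and the treated libraries alone would not have done so. C5ar1 fell 5.86-fold, with a 95% interval of 3.04 to 11.3 (edgeR log2 change -2.55, SE 0.43, adjusted p = 0.0198). The call ended without control replicate 2 (adjusted p = 0.0545) or without anti-CD115 replicate 2, 3 or 4 (0.0763, 0.0756 and 0.0834), with log2 changes of -2.57, -2.32, -2.67 and -2.39. On log2(FPKM + 1), a scale that shrinks changes of low genes, it also ended (-0.55, limma adjusted p = 0.0577). Whether the falls of C3ar1 and C5ar1 differ was not tested.

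Other cells that carry these receptors were looked at through their markers. Of 8 neutrophil markers, 4 were tested and none passed, the usual outcome where 0.869% of all genes tested passed. The smallest edgeR adjusted p was 0.111, for the receptor Csf3r. The summed level of the 8 was 2.60 to 9.48 CPM in controls and 3.83 to 6.54 CPM with anti-CD115. Csf3r had every treated library below every control, at 0.421 to 0.607 CPM against 0.874 to 1.78 CPM (log2 -1.28, SE 0.30), and its part in the fall of C5ar1 was not tested. The neutrophil gene S100a8 was at 0.210 to 1.36 CPM in controls and 0.877 to 1.29 CPM in treated libraries. The summed level of 5 mast cell markers ran from 0.419 to 4.06 CPM in controls and from 0.294 to 5.75 CPM in treated libraries, highest in control replicate 3 and in anti-CD115 replicate 2. The mast cell protease Tpsb2, the 1 marker of the 5 that was tested, stood at 1.13 and 2.14 CPM in those libraries and at 0.126 to 0.528 CPM in the other 6, and did not pass (log2 0.82, SE 0.72, edgeR adjusted p = 0.739).

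To set the complement genes against the macrophage content of each library, the mean log2(CPM + 0.5) of the 14 macrophage markers was subtracted from that of each gene. The marker mean itself lay 2.31 lower with anti-CD115. Relative to it, C3ar1 stood at -0.98 ± 0.24 in controls and -0.84 ± 0.25 with anti-CD115 (SD, n = 4 each), a difference of 0.14 with overlapping groups (two-sided exact permutation test, p = 0.343, unadjusted). Against Csf1r alone the difference was 0.83 (exact permutation p = 0.0571) and with log2(CPM + 0.1) it was -0.03 (exact permutation p = 0.971).

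The same ratio of C5ar1 was higher by 0.88 with anti-CD115, and that of the other 5 genes by 1.79 to 2.39, each with all treated libraries above all controls and the smallest exact permutation p that 4 against 4 allows, 0.0286, unadjusted over the 7 ratios. Such a shift was the rule, present for 99.0% of all genes tested, so it says nothing particular about these 6. The shift of C5ar1 was smaller with log2(CPM + 0.1) (0.46, exact permutation p = 0.0857) and with log2(FPKM + 0.1) (0.70, exact permutation p = 0.0571), where it did not pass. For Cfb, whose levels lie below the added 0.5, the ratio mostly mirrors the markers. All treated levels of C5ar1 also lie below 0.5, as do those of C3ar1 in anti-CD115 replicates 2 and 4. The added value shrinks their falls on this scale. In edgeR the log2 changes were -2.55 for C5ar1 and -2.70 for C3ar1.

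**Figure D2:**
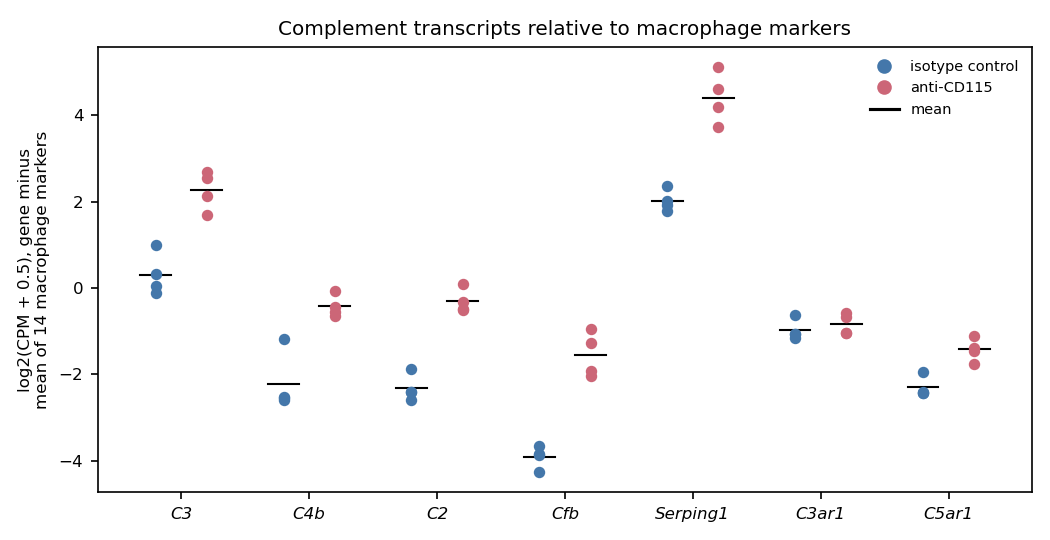
Level of each complement gene minus the mean of 14 macrophage markers in the same library, in log2(CPM + 0.5) units, for 4 isotype control (blue) and 4 anti-CD115 (red) libraries; black lines are means. The C3ar1 groups overlap (-0.98 and -0.84), whereas the other genes lie higher with anti-CD115, by 0.88 for C5ar1 and by 1.79 to 2.39 for the rest. All treated levels of C5ar1 lie below the added 0.5, which shrinks its fall on this scale.

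C3 is the protein whose cleavage product attaches to targets (ENSMUSG00000024164, chromosome 17, 57203970 to 57228136, minus strand). Its level was 8.91, 13.1, 10.4 and 17.4 CPM in controls and 7.61, 7.54, 11.8 and 11.1 CPM with anti-CD115. The groups overlapped, with control replicate 4 the highest library. The log2 change was -0.37 (SE 0.19, 95% interval -0.79 to 0.04, edgeR adjusted p = 0.529), and the interval reached to 1.73-fold lower. Leaving out control replicate 4 gave -0.21 and anti-CD115 replicate 2 gave -0.24, while leaving out control replicate 3 gave -0.48. It passed in none of the fits with 1 library left out (smallest edgeR adjusted p = 0.369).

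C4b encodes complement component 4, split by the classical and lectin proteases (ENSMUSG00000073418, chromosome 17, 34728380 to 34743882, minus strand). It was at 1.05, 1.40, 4.74 and 0.979 CPM in controls and at 1.19, 0.822, 1.29 and 0.841 CPM with anti-CD115. Control replicate 3 stood 4.15 times above the mean of the other 3 controls, a ratio reached by 0.203% of genes tested, and the remaining controls overlapped the treated libraries. The log2 change of -0.94 (SE 0.50, 95% interval -2.03 to 0.16, edgeR adjusted p = 0.555) did not pass, and without control replicate 3 it was -0.13 (0.909). C4a, a nearby paralogue with a similar sequence, held at most 5 counts in any library, and how reads shared by both copies were counted is not stated.

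C2, the protease that binds C4b in the classical and lectin convertase (ENSMUSG00000024371, chromosome 17, 34862604 to 34898265, minus strand), was at 1.22, 1.57, 2.73 and 0.979 CPM in controls and at 1.26, 0.964, 1.73 and 0.799 CPM with anti-CD115. The groups overlapped, and control replicate 3 was again the highest. Its log2 change was -0.43 (SE 0.36, 95% interval -1.23 to 0.36, edgeR adjusted p = 0.726) and without control replicate 3 it was -0.06 (0.968).

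Cfb, the alternative pathway counterpart of C2 (ENSMUSG00000090231, chromosome 17, 34856374 to 34862518, minus strand), had 3, 7, 4 and 6 counts in controls and 3, 6, 8 and 6 with anti-CD115, that is 0.119 to 0.245 and 0.105 to 0.252 CPM. A difference was not detectable at this depth; in edgeR without the filter on low counts its log2 change was 0.20 (SE 0.62, adjusted p = 0.949). In GENCODE M21 the gene Gm20547, on the same strand, shares 79.5% of the exon bases of Cfb and 42.8% of those of C2, and Zbtb12 on the opposite strand shares 4.16% of those of C2. Gm20547 had 0 counts in every library. Whether counting used the strand, and what was done with reads that fall in both genes, is not given in the sources used here, so the levels of Cfb and C2 may miss such reads.

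Serping1 encodes the inhibitor of the C1r, C1s and lectin pathway proteases (ENSMUSG00000023224, chromosome 2, 84765387 to 84775444, minus strand). It was the best measured of the 7, with 863 to 2059 counts in a library, and stood at 36.3, 40.8, 61.0 and 30.2 CPM in controls and 45.1, 47.3, 36.3 and 44.3 CPM with anti-CD115. The groups overlapped. The log2 change was 0.04 (SE 0.19, 95% interval -0.37 to 0.46, edgeR adjusted p = 0.964). Its sign turned in males only (-0.05) and without control replicate 1 (-0.05), control replicate 4 (-0.09) or anti-CD115 replicate 1 (-0.05), and without control replicate 3 it was 0.28 (0.448).

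Isotype control replicate 3 was the highest control for C4b, C2, C5ar1 and Serping1, at 4.15, 2.17, 2.00 and 1.71 times the mean of the other 3 controls, but not for C3 (0.792). The fibroblast collagen Col1a1 was at 2.50 times that mean, with 243 CPM against 85.5 to 105 CPM in the other controls, while the fibroblast receptor Pdgfra was at 1.08 times. Higher ratios were seen for the smooth muscle actin Acta2 (3.14) and for the complement regulator vitronectin, Vtn (5.46). The same library was also the highest control in the summed neutrophil markers (9.48 against 2.60 to 4.23 CPM), mast cell markers (4.06 against 0.419 to 1.19 CPM) and B cell markers (13.2 against 6.26 to 8.18 CPM). So it was, by less, in the macrophage (246 against 188 to 239 CPM), endothelial (464 against 308 to 448 CPM) and mural sums (284 against 190 to 262 CPM). It was not the highest in the pituicyte and astroglia or the folliculostellate and stem sums. The summed level of 6 fibroblast markers was 1144 CPM there against 671 to 776 CPM. With anti-CD115 the fibroblast sum was 683 to 939 CPM, and 0 of the 6 passed between treatments, against 0.869% of all genes tested. The part of these markers in the levels of the complement genes was not tested. Leaving the library out kept both receptor calls, with C3ar1 at -2.70 and C5ar1 at -2.22 (edgeR adjusted p = 0.00833 and 0.0410).

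**Figure D3:**
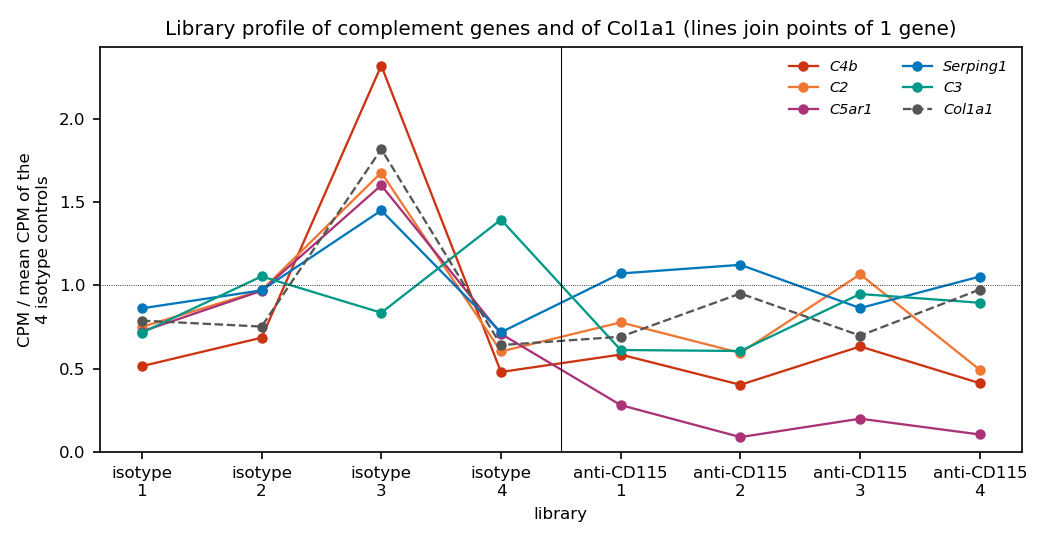
CPM of 5 complement genes and of the fibroblast marker Col1a1 (dashed) in each of the 8 libraries, divided by the mean of the 4 isotype controls; lines join the points of 1 gene and carry no order. C4b, C2, C5ar1, Serping1 and Col1a1 peak in isotype control replicate 3, C3 does not, and C5ar1 is below all controls in the 4 treated libraries.

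C4b, C2 and Cfb lie close together in the class III region of the major histocompatibility complex. Within 50 kb of them the table lists 20 other genes, of which 9 had enough counts to be tested. None of the 9 passed (edgeR), and 0 had an unadjusted p below 0.05. Over all genes tested 0.869% passed, so no call among 9 genes is the usual outcome. Their log2 changes ran from -0.14 to 0.28 with a median of -0.02. The genes Tnxb, Stk19, Dxo, Skiv2l, Nelfe, Zbtb12, Ehmt2, Slc44a4 and Neu1 were those tested; the other 11 reached at most 8 counts in a library.

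**Figure D4:**
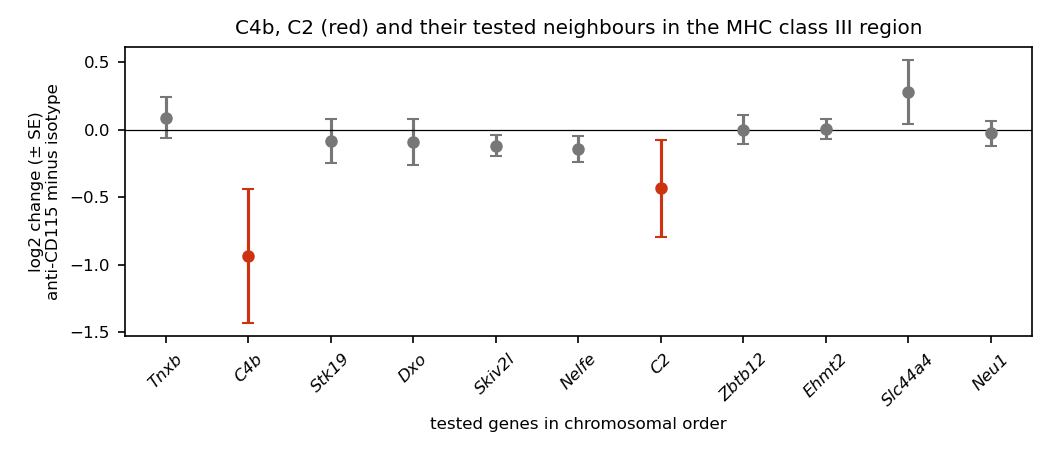
Log2 change with anti-CD115 (vertical axis, error bars SE from edgeR) of C4b and C2 (red) and of the 9 tested genes within 50 kb (grey), in chromosomal order. The neighbours lie between -0.14 and 0.28, C2 at -0.43 and C4b at -0.94, and none passed the test.

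Levels can be compared between genes only per length. In the authors' FPKM (fragments per kilobase of gene per 1000000 fragments), Serping1 led in controls at 17.9 ± 5.58, followed by C3 at 2.40 ± 0.723, C3ar1 at 1.08 ± 0.143, C5ar1 at 0.627 ± 0.258, C2 at 0.415 ± 0.195, C4b at 0.354 ± 0.311 and Cfb at 0.0614 ± 0.0221 (SD, n = 4). Serping1 and C3, C3 and C3ar1, and C4b and Cfb did not overlap as neighbours in this order, whereas C3ar1 and C5ar1, C5ar1 and C2, and C2 and C4b did. With anti-CD115 the order became Serping1, C3, C2, C4b, C3ar1, C5ar1 and Cfb, with C3ar1 at 0.160 ± 0.0935 and C5ar1 at 0.105 ± 0.0564 FPKM. The receptors thus passed from places 3 and 4 to places 5 and 6, where their ranges overlapped those of their neighbours. Reads in the exon bases that Cfb and C2 share with Gm20547 may be missing from these FPKM. The places of Cfb and C2, and so those of the genes near them, are therefore uncertain.

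The wider cascade was followed in 45 other complement genes, of which 27 were tested. Of these, 5 fell, 0 rose and 22 passed in neither direction, against 0.829% lower and 0.0395% higher over all genes tested. Their median log2 change was 0.00. All 3 chains of C1q fell, as did 2 receptor subunits, Itgax (log2 -2.20, SE 0.32, edgeR adjusted p = 0.00929) and Itgb2 (-1.47, SE 0.22, 0.0110), which pair as complement receptor 4. The call of Itgb2 ended without anti-CD115 replicate 4 (0.0512) and that of Itgax without anti-CD115 replicate 3 (0.0526). The C1q chains stood at 38.7, 32.4 and 16.4 FPKM in controls (C1qa, C1qb, C1qc) and at 4.06, 4.21 and 2.13 FPKM with anti-CD115; leaving out anti-CD115 replicate 4 ended the call of C1qc (edgeR adjusted p = 0.0643).

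The proteases that act beside C1q, C1ra (log2 0.06) and C1s1 (0.18), did not pass, and of the lectin pathway genes neither the protease Masp1 (0.20, SE 0.13, adjusted p = 0.640) nor the collectin Colec11 (-0.71, SE 0.31, 0.477) did. In the alternative pathway, properdin, Cfp, had a log2 change of -0.52 (SE 0.37, adjusted p = 0.677), and factor D, Cfd, known as an adipocyte product, had 0 counts in every library. Of the terminal pathway 3 of 7 genes were tested, C7 (-0.10), C8g (0.09) and Hc, which encodes component 5 (0.01), and none passed. Of 13 regulators 11 were tested and none passed. Over all genes tested 0.869% passed, so no call among so few genes is the usual outcome. The highest regulators by FPKM were clusterin, Clu (log2 0.12, SE 0.09), and Cd59a, which blocks the membrane attack complex (0.10, SE 0.13). Among the other receptors, the second receptor for the component 5 fragment, C5ar2, had a log2 change of -1.44 (SE 0.43, adjusted p = 0.267) and Itgam, the partner of Itgb2 in complement receptor 3, of -1.89 (SE 0.50, 0.199), while Cd93 gave 0.28.

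**Figure D5:**
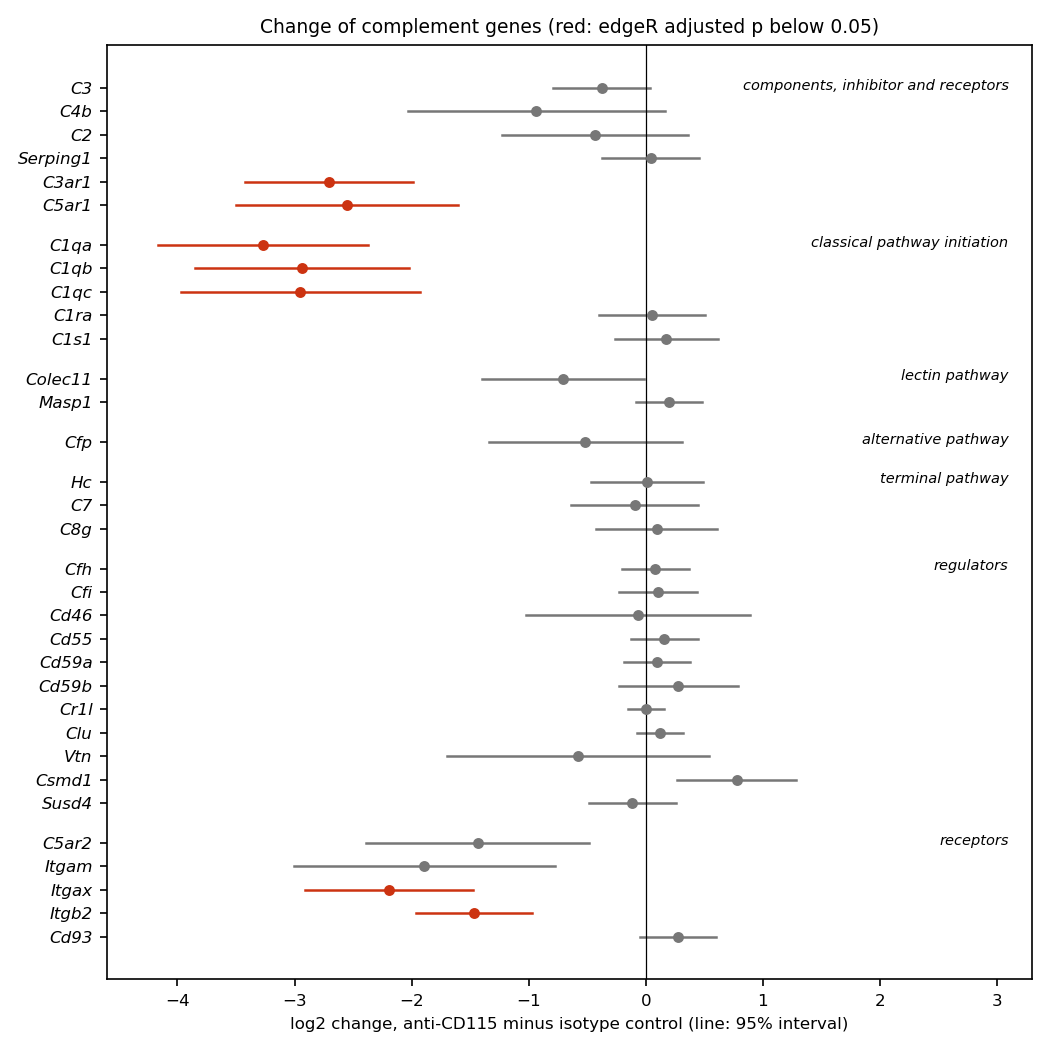
Log2 change with anti-CD115 (horizontal axis; points with 95% intervals from edgeR) of the 6 tested complement genes described above and of 27 other tested complement genes, grouped by role. The 7 in red passed at an adjusted p below 0.05: C3ar1, C5ar1, the 3 C1q chains, Itgax and Itgb2, all of them lower.

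Hepatocyte markers were checked because the liver is the main source of circulating components, and of 5 markers Ahsg and Fgb had 0 counts in every library and albumin, Alb, had 0 counts in 7 libraries and 0.0421 CPM in anti-CD115 replicate 4. The apolipoproteins were counted in every library and did not pass, Apoa2 at 1.18 to 1.96 CPM in controls and 0.294 to 1.47 CPM with anti-CD115 (log2 -0.73, SE 0.38, edgeR adjusted p = 0.541) and Apoa1 at 0.280 to 0.630 and 0.316 to 0.715 CPM (log2 0.19). None of the 10 tested interferon, interleukin 6 and NF-kB response genes, classes known to induce C3, C4 and Cfb in other tissues, passed (median log2 -0.05). None of the 6 endothelial, 5 mural, 5 pituicyte and astroglia, 4 folliculostellate and stem and 3 tested B cell markers passed either. Over all genes tested, 0.869% did. The log2 changes of the 6 fibroblast markers ran from -0.27 for Col1a1 to 0.14 for Col3a1 (median -0.04), and those of the 6 endothelial markers from 0.13 to 0.34 (median 0.27). The pituicyte and astroglia markers ran from -0.01 for Rax to 0.87 for Gfap (SE 0.56, median 0.27). Of these, Aqp4 had the smallest edgeR adjusted p (0.0624, log2 0.61, SE 0.13). The folliculostellate and stem markers ran from 0.08 for Sox2 to 0.71 for S100b (median 0.21). Every treated library lay above every control for Pecam1, Cdh5, Cspg4 and Aldh1a2, as for 2.47% of all genes tested. No tested endothelial, mural, pituicyte and astroglia or folliculostellate and stem marker had every treated library below every control.

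The sexes were compared in the same model, with 1 female per treatment assumed to vary as males do. None of the 6 genes passed (edgeR), against 0.491% of all genes, and 1 had an unadjusted p below 0.05, against 9.09% of all. It was C3, with 8.91 and 7.61 CPM in the control and the treated female and 7.54 to 17.4 CPM in males (log2 -0.51, SE 0.22, adjusted p = 0.525). None of the 6 changes passed a test of a difference between the sexes (sex by treatment term, edgeR adjusted p = 1.000 for each gene; 0 at an unadjusted p below 0.05), a term that passed for 0.0395% of all genes and had an unadjusted p below 0.05 for 3.20%. The widest was C5ar1, at 1.65 (SE 0.88): between the 2 females its level went from 1.18 to 0.456 CPM.

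Genes whose deviations from the treatment means followed each complement gene most closely over the 8 libraries were sought among 15478 genes with a mean of 1 CPM or more. The closest to C4b were Ptgds, Prg4 and Serpind1 (Pearson r = 0.984, 0.982 and 0.980, and without control replicate 3 0.939, 0.923 and 0.907), and to Serping1 they were Adh1, Fcgrt and Chst15 (0.988, 0.987 and 0.986). C2 was followed by Cbr1, Bin2 and Pced1b (0.985, 0.984 and 0.982), and C3 by Clip1, Gli2 and Adcy2 (0.994, 0.987 and 0.981). The closest to C3ar1 were Qdpr, Fam3a and Qpctl (0.977, 0.977 and 0.976), to C5ar1 Zbtb17, Plpp4 and Slc7a11 (0.991, 0.981 and 0.979), and to Cfb Ercc6, Trpc4 and Steap2 (0.967, 0.964 and 0.964). Being the closest of so many, these are high by choice and are given as a description. Those of C4b, C2, C5ar1 and Serping1 share the high value of control replicate 3. Without that library those of C2 were 0.970, 0.977 and 0.977. Those of C5ar1 were then 0.981, 0.985 and 0.955, and those of Serping1 0.978, 0.972 and 0.963. Among the 7 themselves, C4b went with C5ar1 (0.925), C2 (0.905) and Serping1 (0.80), and C2 with C5ar1 (0.893). C3 did not go with them (-0.23 with C4b and -0.20 with C2). The values among C4b, C2, C5ar1 and Serping1 also share the high value of control replicate 3 and were not computed without it.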

How the data were processed

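RNA of 8 mouse pituitaries (100 ng a library) was sequenced after a strand-specific mRNA preparation, per the labels' protocols. The tools in the submitters' processing notes are featureCounts 1.5.0-p3, HISAT2 2.0.5 and StringTie 1.3.3b, on GRCm38, and settings are not given in the sources used here. The deposited table holds whole-number counts per gene, and a further deposited table gives the authors' FPKM for the same genes.

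The main test used edgeR 4.0.16 under R 4.3.3: filterByExpr on treatment, TMM factors, and the quasi-likelihood test with sex and treatment terms on all 8 libraries, adjusted by Benjamini and Hochberg over all genes (threshold 0.05). The code was tested on simulated data. DESeq2 1.42.0, limma 3.58.1, other filters, scalings, FPKM and left-out libraries were alternatives. Intervals are 95% t intervals from the fit. The p-values of the fits set each change against the spread between these libraries, which may not be the spread between litters. The ratios to macrophage markers were to be adjusted over the 7 genes; unadjusted exact p are given instead. The 7 genes and all lists were chosen with earlier results of these data known. Named were all 7 genes, the wider genes that passed or had the 2 highest FPKM in a role, genes within 50 kb of C4b, C2 or Cfb, the 3 closest genes by correlation, and defining markers; C1ra, C1s1, Hc, C5ar2, Itgam, Csf3r, Vtn and the named members of the marker lists beyond the defining ones were added after their values were seen.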

Additional observations from a re-analysis of the deposited data

Results flagged for a closer look

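C4b in isotype control replicate 3 was at 4.74 CPM, far above the other 3 controls at 0.979 to 1.40 CPM, with a gap to the nearest that took 0.888 of the group's range. Masp1, a protease of the lectin pathway, was at 21.8 CPM in anti-CD115 replicate 3 against 15.7 to 15.9 CPM in the other treated libraries, a gap of 0.972 of the range. The limit for 4 samples is 0.83, and 46 groups of 4 values were checked, of which chance flags about 1 in 20.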

How the results depend on the processing

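The 2 falls among the 7 genes stayed 2 with RLE size factors, DESeq2, limma-voom, log2(FPKM + 0.1), no filter and a stricter filter. They also stayed 2 with no sex term, males only and a replicate block. The stricter filter asked for 1 CPM in 4 libraries. C5ar1 reached this through the controls alone, and C3ar1 through the controls with only anti-CD115 replicate 3 beside them. Passing that filter therefore adds no support for either fall. The main filter, too, was passed by C5ar1 only because of its controls. The count became 1 with log2(FPKM + 1), where C5ar1 did not pass, and was 1 to 2 with 1 library left out. C3ar1 passed in every one of these fits, with edgeR adjusted p of 0.00220 to 0.0122 when 1 library was left out. The wider list had 5 falls, and 3 to 5 with 1 library left out, 3 of them without anti-CD115 replicate 4. Over all genes the 154 calls became 268 with DESeq2 (216 lower, 52 higher), 487 without the filter on low counts (353 lower, 134 higher), and 89 to 120 with 1 library left out, 89 without anti-CD115 replicate 4 and 101 without anti-CD115 replicate 2. Neither the sex nor the sex by treatment count left 0; the latter cannot be estimated without a female. Signs turned for values that did not pass. Serping1 was -0.0453 in males only and -0.0933 to 0.278 with 1 library left out, C8g -0.0821 to 0.215, C7 -0.24 to 0.0889 and Cd59a -0.0434 to 0.194, and the C3ar1 ratio was -0.0262 with log2(CPM + 0.1). The cause was not tested. Same-numbered libraries did not all deviate together (correlations across genes of 0.396, -0.12, 0.0612 and 0.306), so the numbers were not taken as pairs. Sex was not removed from these deviations, and replicate 1 was the female in both groups. The correlations therefore cannot tell pairing from sex. With the replicate block 2 of the 7 genes and 118 genes in all passed. The 4 to 13 counts of C5ar1 in treated libraries and the 3 to 8 of Cfb limit their precision.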
